A study of Caenorhabditis elegans with 6 samples.

Results

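The vitellogenin genes of *C. elegans* are *vit-1*, *vit-2*, *vit-3*, *vit-4*, *vit-5* and *vit-6*, and they made up 6 of the 19793 genes in an RNA-seq table of isolated neural cells. They were found by their names in that table. The group was chosen by its normalized values, which had been seen to be much higher in one genotype than in the other, so the difference between genotypes is described here without a test. The question of the experiment was how neural gene expression differs when ADR-1, an RNA-binding member of the ADAR family, carries mutations in its first double-stranded RNA binding domain (dsRBD1). Neural cells were isolated from first-stage larvae (L1) that had hatched without food after bleaching of adults, in 3 biological replicates of each genotype. The first group was strain BB78, labelled *adr-2(-)*, and the second was strain HAH57, labelled *adr-2(-)*;ADR-1 dsRBD1, which expresses FLAG-tagged ADR-1 with the dsRBD1 mutations. Both groups lack ADR-2, the A-to-I RNA editing enzyme of this animal, through the same *ok735* deletion. Both also carry red and green fluorescent reporters driven by the neuronal *rab-3* promoter and a genomic *unc-119* rescue. The dsRBD1 mutations are base changes that a table of reads per gene cannot show, so the labels could not be checked from the targeted gene.

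Vitellogenins are the precursors of yolk, large lipid-carrying proteins related to the apolipoprotein B of vertebrates. In *C. elegans* they are made in the intestine of the adult hermaphrodite, secreted into the body cavity and taken up by growing oocytes through the receptor RME-2, and the yolk then feeds the embryo and the newly hatched larva. *vit-1* and *vit-2* encode the yolk protein YP170B, *vit-3*, *vit-4* and *vit-5* encode YP170A, and *vit-6* encodes a precursor that is cut into YP115 and YP88. The adult intestine, and not the larva or the neuron, is known as the place of their synthesis.

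The values are read counts that the authors divided by 1 DESeq2 size factor per library, and are called normalized values. Depth ranged from 5686686 to 14658470 reads on genes in *adr-2(-)* cells and from 12219263 to 18382009 in dsRBD1 mutant cells. Genes with a read numbered 15321, 15018 and 10532 in *adr-2(-)* replicates 1, 2 and 3 and 11971, 14778 and 15887 in the dsRBD1 mutant replicates. dsRBD1 mutant replicate 1 thus held fewer genes than *adr-2(-)* replicate 1 at a similar depth (12219263 and 11922671 reads). The third *adr-2(-)* library stood apart, with 55.4% of its reads on ribosomal RNA (*rrn*) genes against 13.5% to 22.3% in the other 5. One read there was worth a normalized value of 3.25, against 0.602 to 0.930 elsewhere. The main values of the vitellogenins and the calls named are therefore also given without it where they move. All 14 neuron markers were found in both genotypes, and their values summed to between 31811 and 37414 in the *adr-2(-)* libraries and between 33402 and 41685 in the dsRBD1 mutant libraries. Markers of muscle and intestine were also present, with sums of 183086 to 274817 for 8 muscle genes and of 59989 to 94625 for 12 intestine genes over the 6 libraries.

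The 6 genes lie at 5 places in the genome (WBcel235 assembly), and 5 of the genes are on the X chromosome. *vit-5* (WBGene00006929) spans positions 3403471 to 3408603 of X on the plus strand and has 6 exons. *vit-4* (WBGene00006928, X 3558769 to 3563965) and *vit-3* (WBGene00006927, X 3567355 to 3572549) stand in tandem on the minus strand with 3389 bases between them, each with 6 exons. *vit-2* (WBGene00006926) spans X 5101042 to 5106169 and *vit-1* (WBGene00006925) spans X 7727889 to 7733168, both on the plus strand and both with 5 exons. *vit-6* (WBGene00006930) lies on chromosome IV, from 8261157 to 8266459 on the plus strand, with 5 exons. All 6 are annotated as protein-coding, and their exons cover between 4870 and 5088 bases. The read values refer to whole genes, exons of the coding sequence and untranslated regions together. *vit-3*, *vit-4* and *vit-5* are near copies of one another, as are *vit-1* and *vit-2*, and only reads that aligned to a single place were kept, so a member may have lost reads that its copies share and the split between copies is uncertain. Short stretches of *vit-2*, *vit-3* and *vit-4* overlap genes on the other strand, of 11, 171 and 150 bases. Those genes held at most 10 reads in any library.

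For the YP170B genes, *vit-1* had normalized values of 1049.8, 181 and 2117 in *adr-2(-)* replicates 1, 2 and 3 and of 39.0, 31.3 and 57.3 in the dsRBD1 mutant replicates. Its lowest *adr-2(-)* library was 3.17 times its highest dsRBD1 mutant library. The mean was 1116 ± 969.8 (SD, n = 3) against 42.5 ± 13.3 (SD, n = 3), a 26.2-fold difference. *vit-2* held more reads, with values of 3917, 838 and 8083 in the *adr-2(-)* libraries and of 223, 118.6 and 148 in the dsRBD1 mutant libraries. Its genotypes did not overlap either, and in both genes *adr-2(-)* replicate 2 was the lowest of its group and replicate 3 the highest. The means of *vit-2* were 4279 ± 3636 (SD, n = 3) and 163 ± 53.9 (SD, n = 3), again 26.2-fold apart.

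Of the YP170A genes, *vit-5* had the highest values. They were 1903, 454 and 3419 in the *adr-2(-)* libraries and 53.0, 60.2 and 53.7 in the dsRBD1 mutant libraries. The dsRBD1 mutant libraries differed little among themselves for *vit-5*, with a coefficient of variation of 7.14%, and the lowest *adr-2(-)* library was 7.54 times the highest of them. The means were 1925 ± 1483 (SD, n = 3) and 55.6 ± 3.97 (SD, n = 3), which is a 34.6-fold difference. *vit-3* had values of 1016, 214 and 2019.9 in the *adr-2(-)* libraries and of 38.1, 6.02 and 32.2 in the dsRBD1 mutant libraries. The lowest of these, in dsRBD1 mutant replicate 2, rested on 10 reads. The fold between the *vit-3* means, 42.6, was the highest of the 5 members that had reads in every library (1084 ± 905 against 25.4 ± 17.1, SD, n = 3 each).

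*vit-4*, the tandem neighbour of *vit-3*, was the member with the fewest reads, 112, 15 and 0 in the *adr-2(-)* libraries and 0 in each dsRBD1 mutant library. Its genotypes overlapped, since *adr-2(-)* replicate 3 was also at 0. In that replicate a share of up to 3 reads, a value of 9.76, cannot be told from 0. For every 100 reads on *vit-3* there were 9.93 reads on *vit-4* in *adr-2(-)* replicate 1, 5.14 in replicate 2 and 0 in replicate 3, where *vit-3* had 621. The mean in *adr-2(-)* cells was 37.3 ± 55.4 (SD, n = 3), which is at least 16.6-fold higher than a floor of 3 reads per dsRBD1 mutant library, a mean value of 2.25. This bound rests on replicate 1, and without it the mean was 5.50 and the bound 2.45.

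*vit-6*, the gene of the smaller yolk proteins, had the highest values of the family in 2 of the 3 *adr-2(-)* libraries, 4166, 817 and 11339. In the dsRBD1 mutant libraries its values were 351, 130.0 and 117. The genotypes did not overlap, and the lowest *adr-2(-)* library was 2.32 times the highest dsRBD1 mutant library, the smallest such gap among the 5 members with reads in every library. The means were 5440.5 ± 5376 (SD, n = 3) and 199 ± 132 (SD, n = 3), a 27.3-fold difference.

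**Figure D1:**
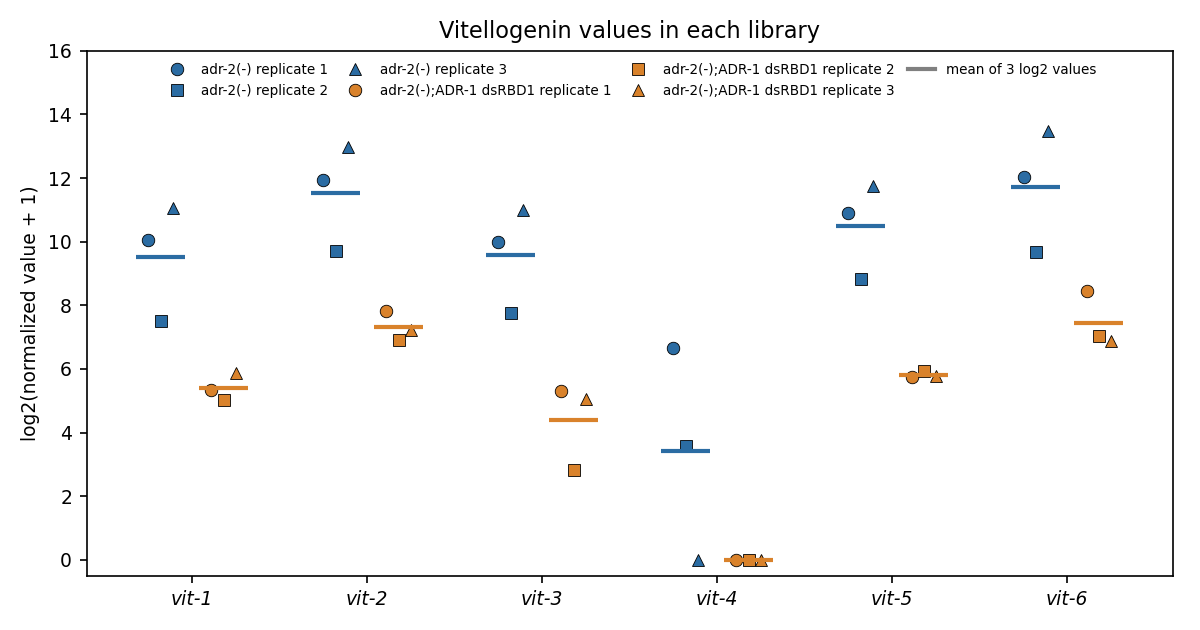
Normalized value of each vitellogenin gene in each library, as log2(value + 1), with *adr-2(-)* libraries in blue, dsRBD1 mutant libraries in orange, a symbol for each replicate and a line at the mean of the 3 log2 values. For all genes but *vit-4* the blue symbols lie above the orange ones, and in *vit-4* the third *adr-2(-)* library is at 0 with the dsRBD1 mutant libraries.

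The spread among the *adr-2(-)* libraries was wide and followed the same order in 5 of the 6 genes. *adr-2(-)* replicate 1 was 4.196 to 5.79 times replicate 2, and replicate 3 was 7.54 to 13.9 times replicate 2, in the members other than *vit-4*. The coefficient of variation of these members was 77.0% to 98.8% among the *adr-2(-)* libraries. The size of the folds rested in part on replicate 3. Without it, the 5 folds were 12.5 (*vit-6*) to 24.2 (*vit-3*), and without *adr-2(-)* replicate 2 they were 36.7 to 59.7. Leaving out dsRBD1 mutant replicate 1 raised the fold of *vit-6* from 27.3 to 44.1.

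On the log2(value + 1) scale the difference, dsRBD1 mutant minus *adr-2(-)*, was -4.13 (SE 0.81) for *vit-1*, -4.23 (SE 0.63) for *vit-2*, -5.19 (SE 0.97) for *vit-3*, -3.42 (SE 2.14) for *vit-4*, -4.67 (SE 0.63) for *vit-5* and -4.27 (SE 0.75) for *vit-6*. The added 1 draws the differences of low values toward 0. The standard errors come from a limma fit over the 13705 genes with a mean normalized value of at least 10, a filter that all 6 members passed. The median of the 6 members was -4.25, while the median of all genes tested was 0.09 and their 5th and 95th percentiles were -2.66 and 2.59. With *vit-4* at its 3-read bound the median was also -4.25, and of the other 5 members it was -4.27. There were 138 genes, members included, with a difference at or below the median of the members. In 5 of the 6 members every dsRBD1 mutant library was below every *adr-2(-)* library, which held for 6.92% of all genes tested, and the opposite order held for 6.8%. Because this contrast chose the members, nothing is read from that count.

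Of the reads on genes, the 6 members together took 0.113% (95% Wilson interval 0.111 to 0.115) in *adr-2(-)* replicate 1, 0.0234% (0.0226 to 0.0242) in replicate 2 and 0.146% (0.143 to 0.149) in replicate 3. The shares in the dsRBD1 mutant libraries were 0.00620% (0.00578 to 0.00666), 0.00313% (0.00288 to 0.00339) and 0.00318% (0.00293 to 0.00345). The intervals of the 2 genotypes do not meet, and they cover counting error only. In whole reads this was 13487, 3427 and 8294 in the *adr-2(-)* libraries, or 1 read in 884, 4277 and 686. In the dsRBD1 mutant libraries it was 758, 575 and 570, or 1 read in 16120, 31969 and 31463. The mean share was 0.0941% ± 0.0634 (SD, n = 3) in *adr-2(-)* cells and 0.00417% ± 0.00176 (SD, n = 3) in dsRBD1 mutant cells. Without *adr-2(-)* replicate 3 the mean share in *adr-2(-)* cells was 0.06825%. In bulk RNA, fewer cells of a type and less RNA per cell cannot be told apart, and a share of this size says nothing of how many cells held the transcripts.

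Levels of different members were compared per kilobase of exon. Reads lost between near copies were not corrected for, so the order of the members is uncertain. In *adr-2(-)* cells the mean normalized value per kilobase was 1074 for *vit-6*, 867 for *vit-2*, 395 for *vit-5*, 220.05 for *vit-3*, 219 for *vit-1* and 7.56 for *vit-4*. Without replicate 3 these means were 492 for *vit-6*, 482 for *vit-2*, 242 for *vit-5*, 125 for *vit-3*, 121 for *vit-1* and 11.3 for *vit-4*, in the same order. In dsRBD1 mutant cells the order was nearly the same, with 39.4 for *vit-6*, 33.1 for *vit-2*, 11.4 for *vit-5*, 8.36 for *vit-1* and 5.17 for *vit-3*, and *vit-4* at 0. Only *vit-1* and *vit-3* changed places, and their *adr-2(-)* levels differed by far less than the spread between libraries. *vit-6* and *vit-2* were also not in a fixed order, since the ratio of *vit-6* to *vit-2* per kilobase was 1.04, 0.9496 and 1.37 in the *adr-2(-)* libraries and 1.53, 1.07 and 0.767 in the dsRBD1 mutant libraries. Among the 19784 genes with an exon length, ranked by value per kilobase within a library, *vit-6* was at place 1241, 5301 and 506 in *adr-2(-)* replicates 1, 2 and 3, and at place 7990, 11178 and 11744 in the dsRBD1 mutant replicates. *vit-2* was at place 1282, 5122 and 693 in the former and at 9142, 11326 and 11008 in the latter. Both thus ranked highest in the third *adr-2(-)* library and lower in each dsRBD1 mutant library than in any *adr-2(-)* library.

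The make-up of the vitellogenin reads differed much less between libraries than their total. *vit-2* gave 32.2%, 33.3% and 30.0% of the vitellogenin reads in the *adr-2(-)* libraries and 31.7%, 34.3% and 36.3% in the dsRBD1 mutant libraries. *vit-6* gave 32.5% to 42.0% in the former and 28.6% to 49.9% in the latter, and *vit-5* gave 12.7% to 18.03% and 7.52% to 17.4%. For each of the 6 members the range of shares in one genotype overlapped that in the other. Within the *adr-2(-)* libraries the ratio of *vit-3* to *vit-2* per kilobase was 0.260, 0.256 and 0.250, although the values of both genes differed more than 9-fold between replicates 2 and 3. In the dsRBD1 mutant libraries, with 10 to 45 reads on *vit-3*, the same ratio was 0.171, 0.0509 and 0.218.

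**Figure D2:**
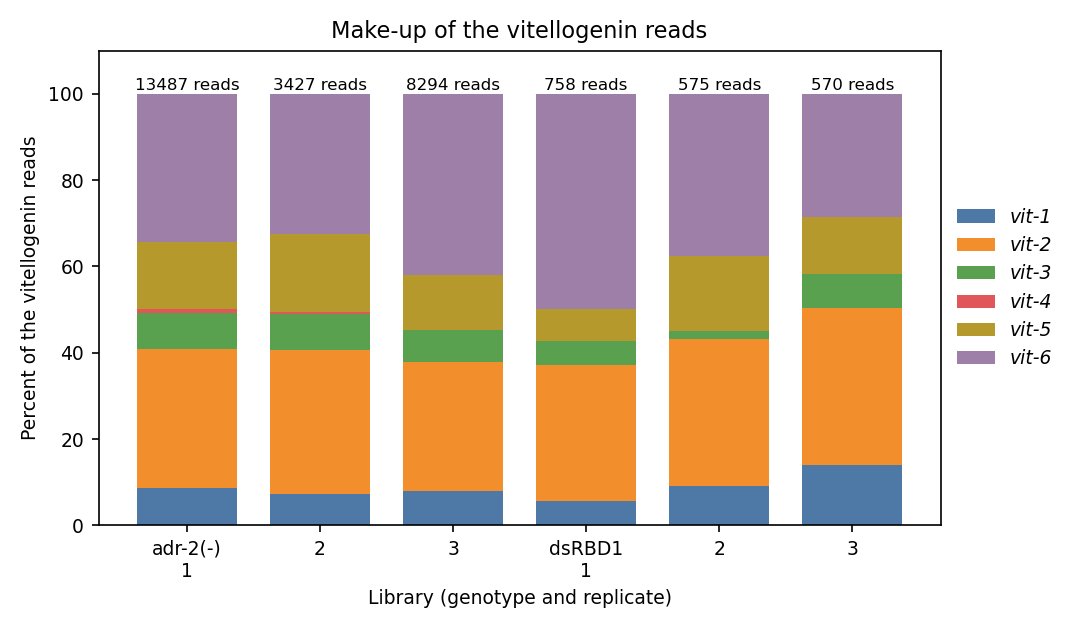
Percent of the vitellogenin reads that fell on each member, in the 3 *adr-2(-)* and 3 dsRBD1 mutant libraries, with the number of vitellogenin reads above each bar. *vit-2* and *vit-6* together fill more than 60% of every bar, while the number of reads falls from 3427 or more in *adr-2(-)* cells to 758 or fewer in dsRBD1 mutant cells.

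The genes beside the vitellogenins were also read. Of the 10 protein-coding genes nearest to them on either side, 5 passed the filter, and their log2 differences were between -0.62 and 0.48. For *acn-1* beside *vit-2* and *K07H8.8* beside *vit-6* the standard errors were 2.89 and 2.27, too wide to place them against the vitellogenins. The 5 that did not pass the filter had mean values of at most 13.2 in either genotype. *spp-14*, 1506 bases from *vit-1* and a member of the saposin-like family, had a mean value of 3290.02 in *adr-2(-)* cells and of 3289.96 in dsRBD1 mutant cells, and *unc-78*, 71 bases from *vit-5*, had a log2 difference of 0.48 (limma, Benjamini-Hochberg adjusted p = 0.749). Only *rgs-7*, beside *vit-4*, had every dsRBD1 mutant library below every *adr-2(-)* library, by -0.25 on the log2 scale (limma, Benjamini-Hochberg adjusted p = 0.811).

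Across the table, members included, a gene was called at an adjusted p under 0.05 and an absolute log2 difference above 0.5. limma called 0 of 13705 genes lower (0%) and 0 higher (0%) in dsRBD1 mutant cells, with 872 genes at an unadjusted p under 0.05, 398 of them lower (2.9%) and 474 higher (3.46%). The quasi-likelihood test of edgeR on the reads also called 0, with 898 at an unadjusted p under 0.05. DESeq2, the tool of the study, called 274 of 13844 genes lower (1.98%) and 43 higher (0.311%).

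The partners of the vitellogenins were listed as 12 genes of yolk assembly, secretion and uptake, and limma, edgeR and DESeq2 called 0 of the 12 in either direction. Little is read from this, since over all genes limma and edgeR also called 0 and DESeq2 called 1.98% lower and 0.311% higher. Their median log2 difference was 0.39, and 1 of the 12 was below 0. This one was *rme-2*, the yolk receptor of oocytes, with values of 506, 128 and 524 in *adr-2(-)* cells and 130.2, 10.8 and 84.4 in dsRBD1 mutant cells. The lowest *adr-2(-)* library was just under the highest dsRBD1 mutant library. Its log2 difference was -2.67 (SE 0.97), with a Benjamini-Hochberg adjusted p of 0.729 in limma and of 0.145 in DESeq2. *dsc-4*, which encodes the microsomal triglyceride transfer protein homolog that loads lipid on vitellogenin, had values of 808, 1597 and 625 against 1609, 1090.01 and 1094 and a difference of 0.42 (SE 0.34, limma adjusted p = 0.756). The endocytic recycling gene *rme-1* had values of 1642, 2654 and 2147 against 1912, 6364 and 8655, with a difference of 1.16 (SE 0.45, limma adjusted p = 0.741 and DESeq2 adjusted p = 0.0775). At an unadjusted p under 0.05 in limma, 1 of the 12 was lower (*rme-2*) and 2 were higher (*rme-1* and the clathrin heavy chain gene *chc-1*), beside 2.9% and 3.46% of all genes. Without dsRBD1 mutant replicate 1, DESeq2 called *rme-1* higher and *rme-2* lower, and over all genes 171 higher and 272 lower.

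Of 15 listed regulators of vitellogenin expression 14 were in the table, and limma, edgeR and DESeq2 called 0 of the 14. Over all genes limma and edgeR also called 0, and DESeq2 called 1.98% lower and 0.311% higher. At an unadjusted p under 0.05 in limma 3 of the 14 were higher and 0 lower, beside 3.46% and 2.9% of all genes. Their median log2 difference was -0.01, with 7 of the 14 below 0. *unc-62*, a homeodomain gene that drives vitellogenin expression in the adult intestine, had mean values of 1254 and 1114 in *adr-2(-)* and dsRBD1 mutant cells, a difference of -0.22 (SE 0.29). Its partner *ceh-60* had values of 73.9, 14.7 and 0 in *adr-2(-)* cells and of 17.7, 40.9 and 0 in dsRBD1 mutant cells, and the genotypes overlapped. *elt-2*, the main GATA factor of the intestine, had a difference of -0.36 (SE 0.47) and the related *elt-7* one of -0.74 (SE 0.77). *pqm-1*, a zinc finger transcription factor gene of stress responses and lipid metabolism, had values of 811, 1350 and 660.3 in *adr-2(-)* cells and of 1372, 2235 and 2431 in dsRBD1 mutant cells. The genotypes did not overlap for *pqm-1*, and the difference was 1.12 (SE 0.31), with a Benjamini-Hochberg adjusted p of 0.703 in limma and 0.0979 in DESeq2. The genotypes were also separated, higher in dsRBD1 mutant cells, for *daf-16* (0.75, SE 0.26) and *daf-2* (0.69, SE 0.27), which encode the FOXO factor and the receptor of insulin signalling. *sgk-1*, a kinase gene, was separated in the other direction by -0.27 (SE 0.34). Of all genes tested, 6.8% were separated higher and 6.92% lower in dsRBD1 mutant cells. DESeq2 called *pqm-1*, *daf-16* and *daf-2* higher without *adr-2(-)* replicate 2, and *pqm-1* and *skn-1* higher without dsRBD1 mutant replicate 1. Over all genes these runs called 157 and 171 higher, against 43 with all libraries.

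The marker lists show which other transcripts moved with the vitellogenins. Like the yolk and regulator lists, they were chosen with earlier results of these data known, so their counts are a description. Of 28 markers of germline, oocytes and early embryos, DESeq2 called 16 lower and 0 higher in dsRBD1 mutant cells, where it called 1.98% of all genes lower. limma called 0 of them, with 19 lower at an unadjusted p under 0.05, beside 2.9% of all genes. Their median log2 difference was -2.99, against 0.09 for all genes tested, and 26 of the 28 were below 0. The number called by DESeq2 was 7 without *adr-2(-)* replicate 1, 8 without *adr-2(-)* replicate 3, 10 without dsRBD1 mutant replicate 2 and 13 to 19 without any other single library. Over all genes DESeq2 called 110, 82 and 191 lower without those libraries and 239 to 362 without any other, against 274 with all libraries. The number called in the list thus fell along with the number called over all genes. The median stayed between -3.72 and -2.31 in limma with any 1 library left out. With all libraries, DESeq2 did not call *mex-1*, *mex-3*, *mex-5*, *pie-1*, *glp-1*, *pgl-1*, *pgl-3*, *glh-1*, *glh-2*, *rme-2*, *egg-2* and *lin-41*. Of these, *glp-1* (log2 difference 1.07, SE 1.29) and *lin-41* (0.11, SE 0.23) were above 0. The rest lay between -3.07 (*egg-2*, SE 1.97) and -0.53 (*mex-1*, SE 1.85). The genes that it called came from different steps of oocyte and embryo development. Called by DESeq2 were the RNA-binding protein genes *gld-1*, *oma-1*, *oma-2*, *puf-5*, *pos-1*, *spn-4*, *mex-6* and *nos-2*, the germ granule gene *meg-1*, and the eggshell and egg surface genes *cpg-1*, *cpg-2*, *cbd-1*, *chs-1*, *egg-1*, *perm-2* and *perm-4*.

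The summed value of the germline, oocyte and embryo list was 13268, 6184 and 18319 in the *adr-2(-)* libraries and 4272, 3924 and 4806 in the dsRBD1 mutant libraries. *adr-2(-)* replicate 2 was thus the lowest of its group for this list as for the vitellogenins, and it was the lowest of the *adr-2(-)* libraries in 24 of the 28 genes. *puf-5*, for example, had values of 560.5, 120.4 and 1626 in the *adr-2(-)* libraries and of 3.72, 27.7 and 17.9 in the dsRBD1 mutant libraries (log2 difference -5.13, SE 1.17, DESeq2 adjusted p = 3.8e-08). *lin-41*, with values of 2043, 2982 and 1893 against 2557, 2343 and 2436, is also in the regulator list and made up much of each dsRBD1 mutant sum. Without it the sums of the other 27 genes were 11225, 3202 and 16426 against 1715, 1581 and 2370. The vitellogenin sum divided by the sum of these 27 genes was 1.08, 0.785 and 1.64 in *adr-2(-)* cells and 0.411, 0.219 and 0.172 in dsRBD1 mutant cells, and nothing is read from the difference, since the vitellogenins were chosen for theirs. The part of such transcripts in the vitellogenin values was not tested.

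The adult cuticle, sperm and somatic gonad lists were short. DESeq2 called 1 gene lower in each, where it called 1.98% of all genes lower, and nothing is read from 1 call. Of 5 adult cuticle genes only the collagen gene *col-19* passed the filter, with values of 403, 33.8 and 745 in the *adr-2(-)* libraries and of 31.6, 34.3 and 55.1 in the dsRBD1 mutant libraries (log2 difference -2.45, SE 1.12, DESeq2 adjusted p = 0.0154). DESeq2 did not call it in 4 of the 6 runs that left out a library, with adjusted p-values of 0.161 without *adr-2(-)* replicate 1, 0.373 without *adr-2(-)* replicate 3, 0.0652 without dsRBD1 mutant replicate 1 and 0.147 without dsRBD1 mutant replicate 2. *adr-2(-)* replicates 1 and 3 were high for *col-19*, while replicate 2 lay within the dsRBD1 mutant range. The summed value of the 5 genes was 44.8 to 745 in *adr-2(-)* cells and 31.6 to 90.2 in dsRBD1 mutant cells. Of 10 sperm markers, 5 passed the filter and DESeq2 called 1, *msp-3*, a major sperm protein gene, with values of 100.02, 20.55 and 176 against 1.86, 1.20 and 2.15 (DESeq2 adjusted p = 0.00033, and 0.0551 without *adr-2(-)* replicate 3). The sperm list summed to 49.2 to 375 in *adr-2(-)* cells and 48.0 to 72.2 in dsRBD1 mutant cells. Of 6 somatic gonad markers DESeq2 called 1, the gap junction gene *inx-9*, with 26.1, 21.3 and 117 in *adr-2(-)* cells and 0 in each dsRBD1 mutant library (DESeq2 adjusted p = 0.0022). Without *adr-2(-)* replicate 3 that adjusted p was 0.312, and DESeq2 called *inx-8* lower instead. Over the 5 somatic gonad genes that passed the filter the median log2 difference was 0.0050, and the sums of the list overlapped, with 1018 to 1490 in *adr-2(-)* cells and 1097 to 1380 in dsRBD1 mutant cells.

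The medians of the intestine, neuron and muscle lists were near that of all genes tested, 0.09. Their median log2 differences were 0.02, 0.06 and 0.17. limma, edgeR and DESeq2 called 0 of 12 intestine markers, 0 of 14 neuron markers and 0 of 8 muscle markers. Over all genes limma and edgeR also called 0, and DESeq2 called 1.98% lower and 0.311% higher, so little is read from these counts. At an unadjusted p under 0.05 in limma there were 0 intestine, 0 neuron and 1 muscle markers. Of all genes 2.9% were lower and 3.46% higher at that threshold. The muscle marker was *myo-1* (log2 difference 0.64, SE 0.27). Both *myo-1* and *myo-2* (0.56, SE 0.28) were separated, higher in dsRBD1 mutant cells, as were 6.8% of all genes. DESeq2 called both higher without *adr-2(-)* replicate 2, and *myo-1* without dsRBD1 mutant replicate 1. Over all genes these runs called 157 and 171 higher. The intestine list, which marks the tissue that makes yolk in adults, summed to 79063, 85596 and 59989 in the *adr-2(-)* libraries and to 94625, 66288 and 66068 in the dsRBD1 mutant libraries. *adr-2(-)* replicate 3, the highest library for 5 of the 6 vitellogenins, was the lowest of all for this list. This was not particular to the intestine list. The same library was also the lowest for the neuron (31811) and muscle (183086) lists and for the yolk uptake, regulator and somatic gonad lists. The early intestine marker *end-3*, a GATA factor gene of the embryonic gut, was at 0 in each *adr-2(-)* library. In the dsRBD1 mutant libraries it was at 49.3, 9.03 and 3.58, from 53, 15 and 5 reads (limma, Benjamini-Hochberg adjusted p = 0.741).

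**Figure D3:**
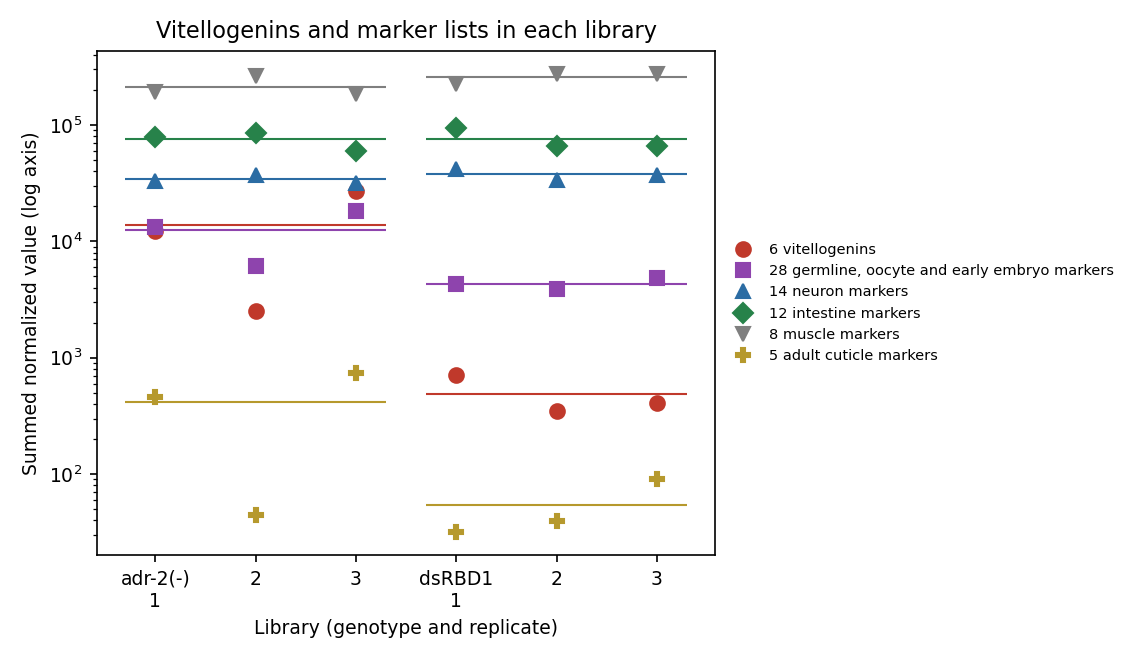
Summed normalized value (log axis) of the 6 vitellogenins and of 5 marker lists in each library, with a line at the mean of the 3 libraries of a genotype. The sums of the vitellogenins and of the germline, oocyte and early embryo list do not overlap between genotypes and are higher in *adr-2(-)* cells, while neuron, intestine and muscle sums overlap between genotypes.

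**Figure D4:**
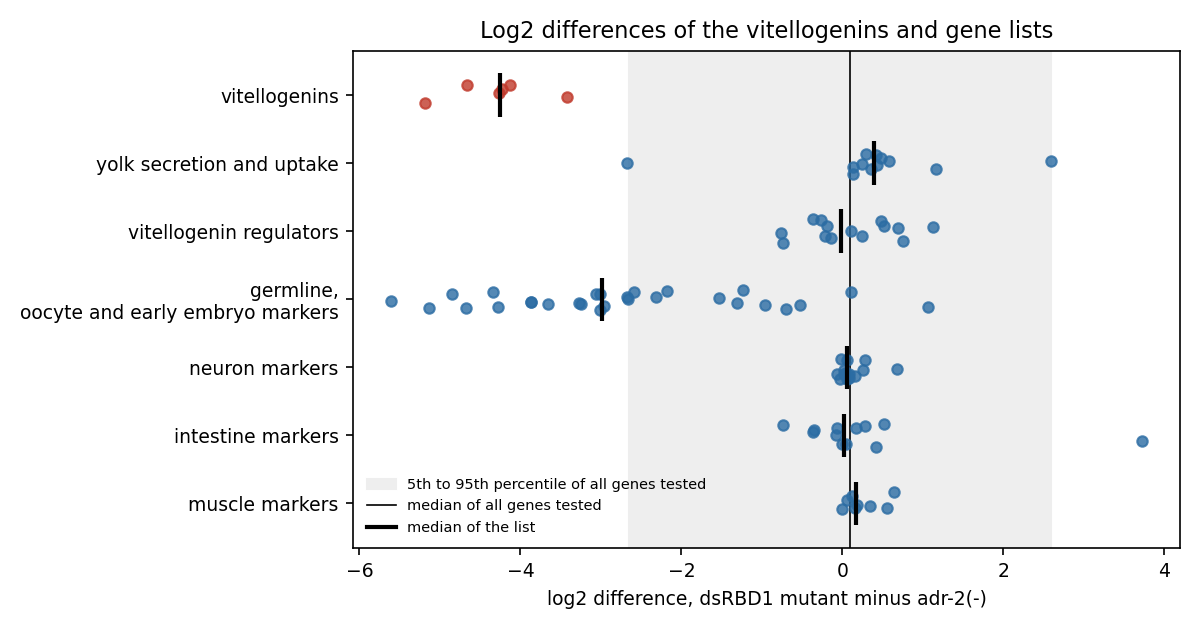
Log2 difference, dsRBD1 mutant minus *adr-2(-)*, of each vitellogenin and of each tested gene of 6 lists, with a thick bar at the list's median, a thin line at the median of all genes tested and a grey band from their 5th to their 95th percentile. All 6 vitellogenins, which were chosen for this contrast, lie left of the band, *vit-4* with an SE of 2.14. Without *adr-2(-)* replicate 1 the plain log2 difference of *vit-4* was -1.79, inside the band. Of the 28 germline, oocyte and early embryo markers 26 are below 0, and the medians of the other lists lie within 0.4 of 0.

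Genes whose pattern was most like that of the vitellogenins were found by Pearson correlation, over the 6 libraries, with the mean of the 6 members on the log2(value + 1) scale. The mean profile was 10.26, 7.84 and 10.04 in the *adr-2(-)* libraries and 5.44, 4.62 and 5.13 in the dsRBD1 mutant libraries. *adr-2(-)* replicate 3 lay below replicate 1 in this mean only through *vit-4*, and the mean of the other 5 members was 10.98, 8.70 and 12.04 in the *adr-2(-)* libraries. Across 13699 genes the median correlation was -0.11, and 108 genes were above 0.95. With 6 libraries in 2 groups such values mostly follow the difference between genotypes and the position of *adr-2(-)* replicate 2, and they share the depth of each library. The 10 highest, from 0.989 to 0.997, were *R04D3.3*, *rps-22*, *Y75B8A.18*, *msp-3*, *W01D2.1*, *ZC373.2*, *T01C3.3*, *col-17*, *cpg-2* and *F23D12.11*. The list depended on *vit-4*. With the mean of the other 5 members as the profile, only *msp-3* and *Y75B8A.18*, 2 of the 10, were again among the 10 highest, and the others then included *nos-2* and *ule-3*. The correlations of the first 10 genes with that profile were 0.964 to 0.996.

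These 10 genes differed greatly in size. *cpg-2*, which encodes a chondroitin proteoglycan of the eggshell, had values of 1355, 258 and 1288 in the *adr-2(-)* libraries and of 46.5, 55.4 and 53.7 in the dsRBD1 mutant libraries. *rps-22*, which encodes a protein of the small ribosomal subunit, followed the mean profile closely in rank with values of 8300, 7150 and 8093 against 6031, 5503 and 5622, a log2 difference of only -0.45 (SE 0.20, DESeq2 adjusted p = 0.244). *W01D2.1* was similar, at -0.49. The other 7 genes had at most 7 reads in any dsRBD1 mutant library, and 8 of the 10 were called lower by DESeq2. This was fixed by how the genes were chosen and is given as a description.

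**Figure D5:**
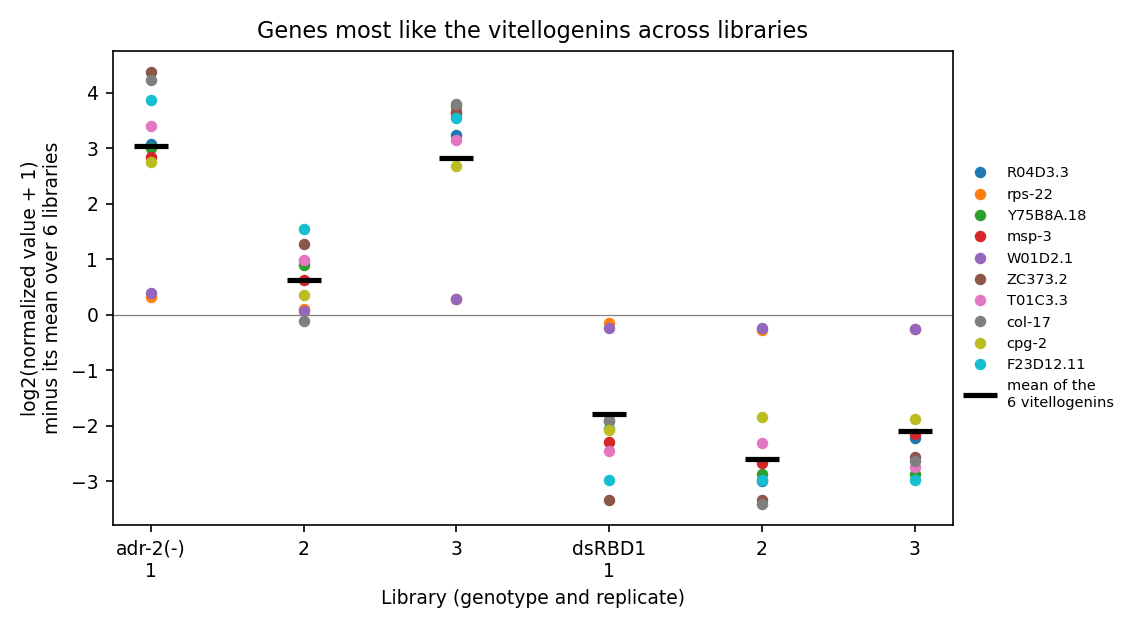
The 10 genes most correlated with the vitellogenins, each as log2(normalized value + 1) minus its own mean over the 6 libraries, with black bars for the mean of the 6 vitellogenins. Most genes are high and low in the same libraries as the bars, while *rps-22* and *W01D2.1* are also higher in *adr-2(-)* cells but stay within 0.4 of 0.

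Among the members themselves, the correlation with the mean profile was 0.964 to 0.985 for the 5 genes with reads in every library and 0.632 for *vit-4*. Without *adr-2(-)* replicate 3 the value for *vit-4* was 0.992. The members are part of that mean, so these values describe only how closely they moved together.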

How the data were processed

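Neural-cell RNA of 3 *adr-2(-)* and 3 *adr-2(-)*;ADR-1 dsRBD1 biological replicates was measured by RNA-seq. The authors selected poly(A) RNA, prepared stranded libraries, sequenced 75-base single reads, mapped them to the WS275 genome with STAR 2.7.8a keeping only those with a single alignment, and used featureCounts for counting and DESeq2 for normalization. Whether the counting used strand is not given in the sources used here. The deposited signal is the count divided by 1 size factor per library. Dividing by the value of 1 read gave whole numbers (tolerance 0.1 read) for 100% of the values in each library, so reads could be recovered. The authors' columns of log2 fold changes, p-values and adjusted p-values were not used.

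Groups came from the sample labels. limma 3.58.1 (R 4.3.3, trend option) was fitted on log2(value + 1) for genes whose mean value was 10 or more, and p-values were adjusted by the Benjamini-Hochberg method. edgeR 4.0.16 (quasi-likelihood) and DESeq2 1.42.0 (Wald) were run on the recovered reads. All 3 were run on simulated counts at the dispersion of these libraries and at a far lower dispersion. Recovery of changed genes was required only at the lower dispersion, so this does not show what the tools can detect in these data. Shares have 95% Wilson intervals, and shares and the floor of 3 reads cover counting error only, since PCR copies are not independent molecules. Tables were summarised in Python 3.11.15 with scipy 1.17.1. Exon lengths and positions come from the WBcel235 annotation.

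The members and lists were chosen with earlier results of these data known. Named were all 6 members, the genes listed for yolk uptake and regulation (some of them only as counts), marker genes that limma or DESeq2 called, and the 10 genes most correlated with the members. *mab-3* and *msp-31* were not analysed here. Alternatives were another pseudocount, other filters, other scalings, another threshold, the replicate number as a block, other denominators, Spearman correlation and leaving out each library. Chosen after seeing the data were DESeq2 with each library left out, *vit-4* at its bound, the shares, the *vit-4* bound and plain log2 means with a library left out, the profile without *vit-4* and the germline list without *lin-41*.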

Additional observations from a re-analysis of the deposited data

How the results depend on the processing

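The log2 differences of the vitellogenins were negative in all alternatives run, and 102 values stayed within the spread between replicates. The exceptions were *vit-4* in edgeR (-8.42) and DESeq2 (-8.11), where the dsRBD1 mutant libraries are at 0 and the fitted value depends on the tool. Leaving out each library in turn gave a median of the 6 members of -5.22 to -3.78 over 5 fits, and values of -5.14 to -3.37 for *vit-1*, -5.15 to -3.51 for *vit-2*, -6.10 to -4.40 for *vit-3*, -5.13 to -3.34 for *vit-4* (5 fits), -5.50 to -4.04 for *vit-5* and -5.29 to -3.39 for *vit-6*. Without *adr-2(-)* replicate 1 *vit-4* fell under the filter, and the plain difference of log2 means was -1.79 for it and -4.08 for the median of 6. At least 10 reads in every library also removes *vit-4*. The share of reads in *adr-2(-)* cells was 0.164% without *rrn* reads in the denominator. The median correlation of the 10 genes most alike was 0.934 with Spearman's measure, 0.978 with the profile of the 5 members other than *vit-4* and 0.990 both with all libraries and without *adr-2(-)* replicate 3. Scaling by totals, by totals without *rrn* genes and by TMM put the median of all genes at 0.21, -0.05 and 0.11. Genes called lower and higher by limma with Benjamini-Hochberg adjustment were 0 and 0, but 3 and 0 without a filter, and 18 and 3 with the replicate number as a block, where 1 marker gene was called lower. Libraries of the same number had correlations of -0.09, 0.04 and -0.06. With 3 libraries per genotype this cannot decide whether they were prepared together, and the labels do not say. DESeq2 called 274 and 43 (1.98% and 0.311% of all genes), with 19 of the 83 marker genes lower. With each library left out, limma called 0 to 11 lower, 0 to 7 higher and 0 to 2 marker genes lower. DESeq2 without *adr-2(-)* replicates 1, 2 and 3 called 110, 362 and 82 genes lower, 34, 157 and 38 higher, and 9, 22 and 9 marker genes lower. Without dsRBD1 mutant replicates 1, 2 and 3 it called 272, 191 and 239 lower, 171, 4 and 8 higher, and 16, 12 and 16 marker genes lower. Over these 6 runs 0 to 1 pathway and regulator genes were called lower and 0 to 3 higher, and 0 to 2 marker genes higher. The cause was not tested. Levels per uniquely mappable window, proteins and promoters were not run, as no genome sequence was used here. Low read counts limit *vit-4*, and *vit-3* in dsRBD1 mutant cells, and the reads lost to near copies were not measured.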

Other observations

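Genes of the uterus and eggshell were looked at after their values had been seen, so their counts are a description. Of 13 such genes, 8 were also in the germline, oocyte and early embryo list and 5 were not. DESeq2 called 11 of the 13 lower in dsRBD1 mutant cells (1.98% of all genes), 7 of them already counted in that list and 4 of them new. Without *adr-2(-)* replicate 3 it called 7 of the 13, and 82 genes lower over all genes. Without *adr-2(-)* replicate 1 it called 8 of the 13, and 110 over all genes. With all libraries it called 274. limma called 0 with 10 lower at an unadjusted p under 0.05 (2.9% of all genes), and the median log2 difference was -3.86. Their sum was 5306, 967 and 8896 in the *adr-2(-)* libraries and 426, 383 and 442 in the dsRBD1 mutant libraries, so *adr-2(-)* replicate 2 was the lowest of its group, as it was for each of the 13 genes. *ule-4*, whose product is found in the uterine fluid, had values of 268, 22.02 and 862 in the *adr-2(-)* libraries and of 2.79, 3.61 and 1.43 in the dsRBD1 mutant libraries. *ule-3* had 225, 21.3 and 403 against 2.79, 1.20 and 0.716. *ule-5* had 379, 2.20 and 491 against 0.930, 1.81 and 0.716, and *adr-2(-)* replicate 2 lay near the dsRBD1 mutant libraries. *ule-1* was not called by DESeq2, and its genotypes overlapped, with 169, 0 and 192 against 0, 49.96 and 0.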
